A study of Homo sapiens with 15 samples.

Results

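The genes described here code for the proteins of caveolae, namely CAV1 and CAV2 (caveolins), CAVIN1, CAVIN2 and CAVIN3 (cavins), EHD2 and PACSIN2. They were chosen by symbol from the deposited gene tables. All 7 were listed among the 16382 genes of the MRC5 table, and 6 of them, all but CAVIN2, among the 16076 genes of the H196 table. The tables together list 17138 genes. Caveolae are small flask-shaped pits of the plasma membrane that buffer membrane tension and gather signalling receptors, and fibroblasts are among the cells that carry many of them. Caveolin oligomers form the bulb, the cavins assemble on it from the cytosol as an outer coat, and EHD2 and PACSIN2 act at the neck, where the pit is held to the cell surface. Caveolin-1 in tumor stroma has long been studied for its link to the metabolism of cancer-associated fibroblasts.

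RNA-seq was made of MRC5, a human lung fibroblast line, and of H196, a small cell lung cancer (SCLC) line of the non-neuroendocrine (non-NE) type. MRC5 cells were cultured separately (MRC5_Mo), with the neuroendocrine (NE) SCLC line H69 (MRC5_coH69) or with H196 (MRC5_coH196), and H196 cells were cultured separately (H196_Mo) or with MRC5 (H196_Co). The partner cells sat on a porous transwell insert, which passes soluble factors and keeps the cells apart. The paper names RPMI medium for the SCLC lines and MEM for MRC5, and does not name the medium of the co-cultures. Each of the 5 groups has 3 libraries, and the groups received no drug, transgene or genetic change. Each cell type is a single line, and the labels do not say whether the 3 libraries of a group came from separate cultures, so p-values measure the spread between these libraries, which may be technical.

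Library totals ran from 18476890 to 19170560 counts for MRC5 and from 16073597 to 17358349 counts for H196, and no pair of libraries agreed within sampling noise. All 10 listed fibroblast markers had at least 10 counts in every MRC5 library. In H196_Mo 9 of these 10 were in the table, their summed level was 2.61 to 3.23 CPM (counts scaled to the library total) against 33806 to 37487 CPM in MRC5_Mo, and COL1A2 was at 0. H196_Mo held all 4 non-NE markers (5199 to 5691 CPM in sum). Of the NE markers CHGB and SYP had at least 10 counts in every H196_Mo library, and NCAM1 was at 0. The 3 NE markers in the MRC5 table summed to 0.161 to 0.641 CPM in MRC5_coH69 and to 0.266 to 0.755 CPM in MRC5_Mo.

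CAV1 and CAV2 are neighbours on the long arm of chromosome 7 in the authors' build GRCh38.p13. CAV2 (gene ID 858) spans chr7:116499738-116508541 and CAV1 (gene ID 857) spans chr7:116525009-116561185, both on the plus strand with 16467 bases between them. CAVIN1 (gene ID 284119) lies at chr17:42402449-42454679, CAVIN2 (gene ID 8436) at chr2:191822531-191867316 and CAVIN3 (gene ID 112464) at chr11:6318946-6320501. EHD2 (gene ID 30846) lies at chr19:47713422-47743134 and PACSIN2 (gene ID 11252) at chr22:42869766-43015149. CAVIN3 is the shortest locus, with 1556 bases, and PACSIN2 the longest, with 145384 bases.

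Because these genes did not move together in MRC5_coH196, the sequences just before the starts of CAV1, CAV2, EHD2 and CAVIN2 are shown. CAV1 and CAV2 are neighbours of opposite direction there. EHD2 was higher in MRC5_coH196 and in H196_Co, each against its mono-culture, and not in MRC5_coH69. CAVIN2 was listed for the fibroblasts alone. Each is the 250 bases before the gene's start, from RefSeq on GRCh38.p14, in the gene's reading direction. Capitals mark every match, on either strand, to ACGTG or GCGTG (the core of the hypoxia response element), CACGTG (E-box), GGAATG (the TEAD core), TGANTCA (AP-1) or GGGCGG (GC box). Every CACGTG also counts as ACGTG, and the other motifs do not contain each other.
CAV1 (chr7:116524759-116525008, plus strand): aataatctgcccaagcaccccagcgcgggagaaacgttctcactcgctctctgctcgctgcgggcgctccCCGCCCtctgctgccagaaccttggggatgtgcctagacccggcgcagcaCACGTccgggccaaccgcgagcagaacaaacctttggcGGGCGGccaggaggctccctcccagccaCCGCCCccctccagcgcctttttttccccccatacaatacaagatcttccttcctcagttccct
CAV2 (chr7:116499488-116499737, plus strand): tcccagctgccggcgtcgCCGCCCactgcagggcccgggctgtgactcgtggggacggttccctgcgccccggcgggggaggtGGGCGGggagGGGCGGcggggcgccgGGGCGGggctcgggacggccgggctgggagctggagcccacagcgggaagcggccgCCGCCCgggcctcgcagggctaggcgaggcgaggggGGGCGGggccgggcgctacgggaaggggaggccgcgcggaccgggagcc
EHD2 (chr19:47713172-47713421, plus strand): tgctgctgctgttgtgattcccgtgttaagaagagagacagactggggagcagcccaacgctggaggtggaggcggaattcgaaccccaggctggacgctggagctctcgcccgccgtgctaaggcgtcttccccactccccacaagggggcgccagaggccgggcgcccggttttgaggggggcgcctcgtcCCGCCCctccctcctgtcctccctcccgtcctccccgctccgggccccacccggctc
CAVIN2 (chr2:191847089-191847338, minus strand): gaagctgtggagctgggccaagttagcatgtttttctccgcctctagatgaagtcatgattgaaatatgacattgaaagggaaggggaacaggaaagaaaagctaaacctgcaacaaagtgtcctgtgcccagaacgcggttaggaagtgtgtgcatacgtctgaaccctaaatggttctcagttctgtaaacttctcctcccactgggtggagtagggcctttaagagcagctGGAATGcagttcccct

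RefSeq gives 3 windows for CAV1 and 2 for CAV2, of which the first is shown, and 1 each for EHD2 and CAVIN2. The CAV2 window shown was the richest in G and C of the 4 (83.2%, against 63.6% for CAV1, 69.6% for EHD2, 48.0% for CAVIN2 and a median of 58.0% over all 35116 windows). The second CAV2 window had 70.0% and the third CAV1 window 73.2%. The CAV2 window shown held 6 GC boxes (3 in the second), against 3 in the CAV1 window (3 and 2 in the others), 1 in the EHD2 window and 0 in the CAVIN2 window, and 42.6% of all windows held at least 1. The CAV1 window alone of the 4 held an ACGTG or GCGTG (1 match), which 43.2% of all windows also held. GGAATG was found in the CAVIN2 window (1 match), as in 11.9% of all windows. None of the 4 windows held CACGTG (6.34% of all windows) or TGANTCA (6.57%). The table held windows for 5 of the 7 genes. The other gene with windows, PACSIN2, is not shown. It held ACGTG or GCGTG in its windows 1, 2, 3 and 5 and GGAATG in its windows 1, 2, 3 and 4. A match is a description of these letters and not a binding site. The CAVIN2 window lies inside the locus that the deposited table gives for the gene, and that table puts the gene on the plus strand where RefSeq has the minus strand, so whether the window precedes the start holds by RefSeq only.

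In MRC5_Mo all 7 genes were expressed, with a wide range of levels per length of transcript (FPKM, fragments scaled to transcript length and library total). CAVIN1, the coat protein without which caveolae do not form, was the highest at 510 ± 19.7 FPKM (SD, n = 3). CAV1, the main structural caveolin, followed at 388 ± 17.1 FPKM. CAVIN3, a cavin that joins the coat through CAVIN1, stood at 221 ± 3.93 FPKM and EHD2, an ATPase that rings the neck, at 200 ± 0.463 FPKM. CAV2, a partner caveolin that needs CAV1 to reach the cell surface, had 52.9 ± 0.427 FPKM. PACSIN2, a membrane-bending F-BAR protein, had 26.6 ± 0.31 FPKM, and CAVIN2, a cavin that shapes membrane, had 15.5 ± 0.818 FPKM. The lowest count behind any of these values was 778, for CAVIN2.

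Beside MRC5_Mo, RNA of CAVIN1 and CAVIN3 was low in H196_Mo cells, which held RNA of both caveolins. CAV1 was the highest of the 6 listed genes there, at 199 ± 10.3 FPKM, followed by CAV2 at 57.9 ± 3.42 FPKM and CAVIN1 at 46.6 ± 2.07 FPKM. PACSIN2 had 29.8 ± 1.17 FPKM and EHD2 7.68 ± 0.152 FPKM. CAV1 made up 58.4% ± 0.945 of the summed FPKM of the listed members in H196_Mo and 27.4% ± 1.27 in MRC5_Mo, and CAVIN1 13.7% ± 1.04 and 36.1% ± 1.32 (SD, n = 3 each). The summed FPKM ran from 329 to 354 in the H196_Mo libraries and from 1409 to 1417 in the MRC5_Mo libraries, which do not overlap.

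**Figure D1:**
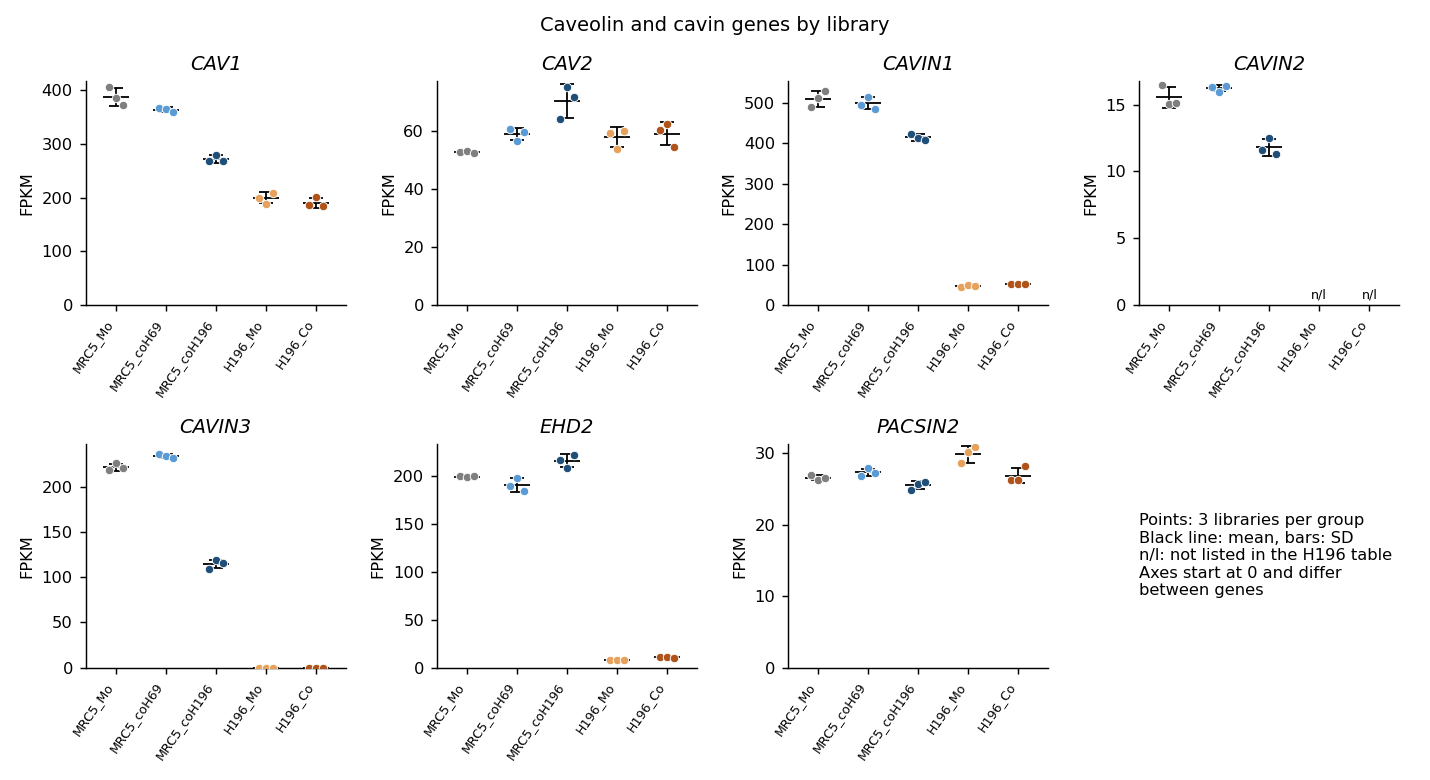
FPKM (linear axes from 0, which differ between genes) of the 7 genes in each library of the 5 groups, with the mean (black line) and SD (bars, n = 3). CAV1, CAVIN1, CAVIN2 and CAVIN3 are lowest among the MRC5 groups in MRC5_coH196, where CAV2 is highest (64.2 to 75.4), and CAVIN3 is at or near 0 in H196.

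CAVIN3 set the lines apart most. It had 3060 to 3157 counts in the MRC5_Mo libraries. In H196_Mo it had 0, 0 and 1 counts, and in H196_Co 0 in each library. The level in MRC5_Mo was 8394 times that in H196_Mo (ratio of pooled CPM, 9284 counts against 1, exact 95% interval 1506 to 331575, counting error only). Against the limit of 3 counts over the 3 H196_Co libraries (0.0589 CPM), the MRC5_Mo level of 165 CPM was at least 2810-fold higher. CAVIN3 passed the filter on low counts in the fit across both lines only through MRC5, so it is left out of the counts that follow.

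The MRC5_Mo and H196_Mo libraries were also compared in 1 edgeR fit of the genes in both tables. Cell line and table cannot be told apart in it, since each line was deposited in a table of its own. Culture medium cannot be told apart from the line either. All 5 members that could be fitted were called higher in MRC5_Mo, beside 42.6% of the 13585 tested genes higher and 44.0% lower, at an adjusted p under 0.05. EHD2 differed most, by 5.14 ± 0.063 on the log2 scale (SE), or 35.3-fold (edgeR quasi-likelihood test, adjusted p = 1.65e-31). CAVIN1 was 15.01-fold higher (log2 fold change 3.91 ± 0.060, adjusted p = 2.39e-29) and CAV1 2.65-fold higher (1.40 ± 0.053, adjusted p = 6.19e-20). The size of these differences depends on the scaling. Over the scalings, tools and filters tried, the log2 fold changes were 4.53 to 5.15 for EHD2, 3.42 to 3.91 for CAVIN1 and 0.96 to 1.41 for CAV1. CAV2 and PACSIN2 had fitted differences of 0.31 ± 0.059 and 0.27 ± 0.054. Their direction depends on the scaling, since library totals alone gave -0.12 and -0.15, and the median of all tested genes then moved from -0.028 to -0.453. Relative to that median both genes stayed above it under either scaling. The share of all calls that were higher went from 49.2% to 33.4% with it.

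The comparison of MRC5_coH196 with MRC5_Mo asks how non-NE SCLC cells change fibroblasts. In bulk libraries fewer cells with an RNA and less of it per cell cannot be told apart. All 7 genes passed the test, and they moved in different directions. CAV1, CAVIN1, CAVIN2 and CAVIN3 fell, and CAV2 and EHD2 rose, while PACSIN2 was called higher by the scaled counts and not by the FPKM. In all, 3 were called higher and 4 lower, beside 37.2% of the 12819 tested genes called higher and 37.1% called lower. With nearly 3 in 4 genes called, the count of called members is close to the background. With an absolute log2 fold change above 0.58 as well, 2 members, CAV2 and CAVIN3, passed, beside 31.9% of all tested genes. The median log2 fold change of the 7 was -0.12, and -0.003 over all tested genes.

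CAVIN3 showed the largest change of the 7. Its values were 218, 226 and 220 FPKM in MRC5_Mo and 109, 118 and 116 FPKM in MRC5_coH196. Every co-cultured library was below every mono-cultured library, with a wide gap between the groups. The log2 fold change was -0.78 ± 0.043, a fall of 41.9% on the scaled counts (edgeR, adjusted p = 1.96e-14). The other cavins fell less. CAVIN1 had 489, 512 and 528 FPKM in MRC5_Mo and 424, 413 and 407 FPKM in MRC5_coH196, so the groups did not overlap. Its log2 fold change was -0.12 ± 0.042 (edgeR, adjusted p = 0.0105), and without replicate 3 of MRC5_Mo the adjusted p was 0.0711. CAVIN2 had 16.5, 15.04 and 15.1 FPKM against 11.6, 12.5 and 11.3 FPKM, again without overlap (log2 fold change -0.22 ± 0.056, edgeR, adjusted p = 0.000876).

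The neighbouring caveolin genes went opposite ways. CAV1 had 406, 385 and 372 FPKM in MRC5_Mo and 268, 280 and 267 FPKM in MRC5_coH196. The co-cultured libraries were all lower (log2 fold change -0.34 ± 0.041, edgeR, adjusted p = 6.65e-08). CAV2 had 53.0, 53.3 and 52.5 FPKM in MRC5_Mo and 64.2, 75.4 and 71.8 FPKM in MRC5_coH196. Here every co-cultured library was higher, and these varied more among themselves than the mono-cultured ones (log2 fold change 0.59 ± 0.048, edgeR, adjusted p = 5.52e-11). Despite its rise CAV2 remained the less abundant of the pair per length.

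Of the neck proteins, EHD2 was higher in the co-cultured fibroblasts. It had 200, 199 and 200 FPKM in MRC5_Mo and 218, 209 and 223 FPKM in MRC5_coH196, without overlap. The log2 fold change was 0.29 ± 0.043 (edgeR, adjusted p = 1.56e-06), and 0.11 by library totals alone, at an adjusted p of at most 0.0163 over all scalings, filters and tools tried. PACSIN2 had 26.9, 26.3 and 26.6 FPKM in MRC5_Mo and 24.9, 25.6 and 26.0 FPKM in MRC5_coH196. The FPKM were thus all lower after co-culture, whereas the scaled counts gave a log2 fold change of 0.11 ± 0.045 (edgeR, adjusted p = 0.025). By library totals alone it was -0.06 (adjusted p = 0.225), so no direction is given for PACSIN2. Its call was also lost without replicate 2 or 3 of MRC5_Mo or replicate 3 of MRC5_coH196 (adjusted p 0.0535 to 0.0914).

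These log2 fold changes rest on TMM scaling, which sets the bulk of genes near 0. By library totals alone the median of all tested genes in MRC5_coH196 was -0.178 and 35.5% of all calls were higher, against 50.0% with TMM. That scaling shifts every member down by about the same amount. CAVIN3, CAV1, CAVIN2 and CAVIN1 were still lower and CAV2 and EHD2 still higher under each scaling tried, with log2 fold changes over the scalings, tools and filters of -0.96 to -0.78 for CAVIN3, -0.51 to -0.33 for CAV1, -0.40 to -0.22 for CAVIN2, -0.30 to -0.12 for CAVIN1, 0.40 to 0.59 for CAV2 and 0.11 to 0.29 for EHD2.

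The labels of the fibroblasts held, but some marker lists moved with the same contrast. In MRC5_coH196 all 10 fibroblast markers had at least 10 counts in every library. Their summed level was 20746 to 21689 CPM against 33806 to 37487 CPM in MRC5_Mo, with 5 of the 10 called higher and 4 lower. The 4 non-NE markers were all called higher (9977 to 10472 CPM in sum against 7507 to 7920). H196_Mo carries them at a lower sum (5199 to 5691 CPM). The sum in MRC5_coH196 was mostly VIM (8768 to 9230 CPM against 6420 to 6770 in MRC5_Mo). Endothelial markers, of interest because endothelium also carries caveolae, summed to 41.5 to 42.3 CPM against 27.1 to 29.9 (5 of 5 listed, CDH5 at 0 in both groups). Leukocyte markers summed to 106 to 115 CPM against 73.1 to 81.8 (3 of 4 listed, PTPRC at 0 in MRC5_coH196) and epithelial markers to 128 to 136 CPM against 125 to 131 (5 of 5 listed). The endothelial sum was nearly all TEK (41.0 to 41.6 CPM against 26.4 to 29.1), while VWF (log2 fold change -0.78) did not pass. The leukocyte sum was nearly all CD68 (106 to 115 CPM against 72.6 to 81.7). Of the epithelial markers KRT8 (0.83) and KRT19 (0.99) were called higher and KRT18 (-0.25) lower. To look for RNA of H196, 95 genes were taken, each of 20 CPM or more throughout the H196 libraries and below 0.5 CPM throughout MRC5_Mo. Their level in MRC5_Mo is thus low by choice. Their sum in MRC5_coH196 was 0.3% to 0.782% of its mean in H196 libraries, against 0.114% to 0.126% in MRC5_Mo and 0.106% to 0.131% in MRC5_coH69. Whether RNA of these 95 genes came from H196 or from MRC5 itself was not tested. The part of all these shifts in the caveola genes was not tested either.

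**Figure D2:**
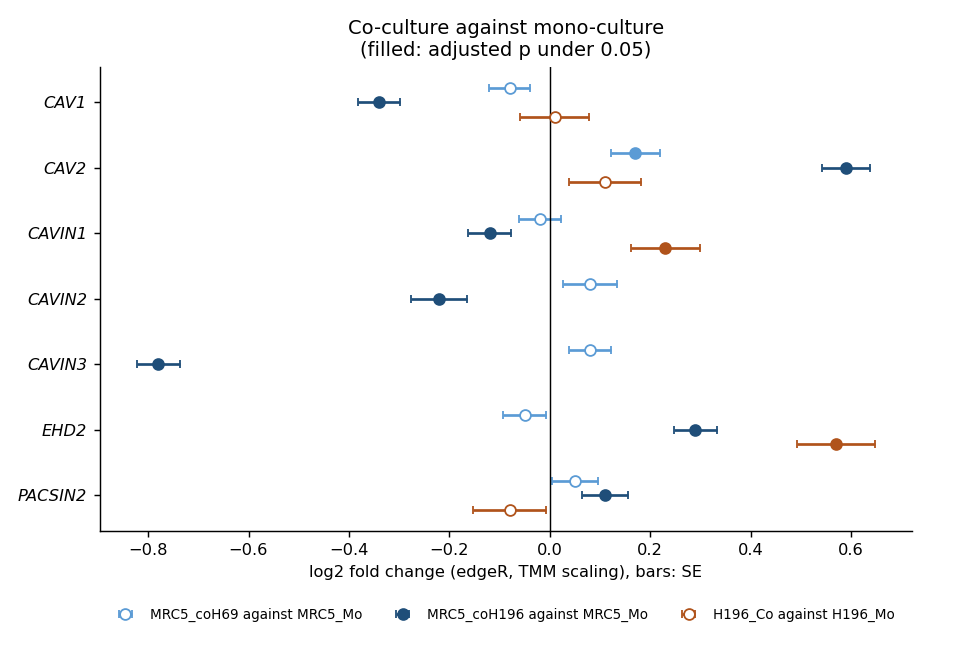
Log2 fold change (linear axis) with its SE for each gene in the 3 comparisons of a co-culture with its mono-culture, with 3 libraries per group. Filled points passed an adjusted p under 0.05 (edgeR). The MRC5_coH196 points spread from -0.78 for CAVIN3 to 0.59 for CAV2, the MRC5_coH69 points lie between -0.08 and 0.17, and EHD2 is the highest H196_Co point (0.57).

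Few of these genes passed the test in fibroblasts grown with NE SCLC cells. In MRC5_coH69 against MRC5_Mo 1 of the 7, CAV2, was called higher and 0 lower, beside 3.78% of tested genes higher and 2.93% lower. CAV2 had 60.7, 56.7 and 59.9 FPKM in MRC5_coH69, all above the MRC5_Mo libraries (log2 fold change 0.17 ± 0.049, edgeR, adjusted p = 0.0325). That call was lost by library totals alone (0.15, adjusted p = 0.0594), with limma on log2(FPKM + 1) (adjusted p = 0.143) and without any 1 of the MRC5_Mo libraries or replicate 1 or 3 of MRC5_coH69, with an adjusted p of 0.0612 to 0.166. For the other 6 the log2 fold changes lay between -0.08 (CAV1) and 0.08 (CAVIN2 and CAVIN3), and none passed. The 95% intervals of CAV1 (-0.16 to 0.00) and CAVIN3 (-0.00 to 0.16) bound the change of these genes. At an unadjusted p under 0.05 CAV2 was also the only one of the 7, and a DESeq2 Wald test likewise called CAV2 and no other member. Of all calls 56.3% were higher, and 45.6% by library totals alone. In MRC5_coH69 epithelial markers summed to 149 to 167 CPM against 125 to 131 in MRC5_Mo, endothelial markers to 34.2 to 35.9 against 27.1 to 29.9, with PECAM1 at 0, leukocyte markers to 57.7 to 70.4 against 73.1 to 81.8, fibroblast markers to 38392 to 39197 against 33806 to 37487, and non-NE markers to 6816 to 7060 against 7507 to 7920. The endothelial sum in MRC5_coH69 was nearly all TEK (33.1 to 34.9 CPM), the leukocyte sum nearly all CD68 (57.4 to 70.2 CPM). The non-NE sum there was mostly VIM (5677 to 5952 CPM). Of the epithelial markers KRT8 (log2 fold change 0.31) and KRT18 (0.40) were called higher, and KRT19 (0.14) did not pass. The part of these marker shifts in the CAV2 result was not tested.

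The 2 kinds of co-culture were also compared directly, in the same fit, to ask whether the partner line made a difference. MRC5_coH196 differed from MRC5_coH69 in 6 of the 7 genes, with 2 called higher and 4 lower, beside 35.7% of tested genes higher and 36.6% lower. CAVIN3 was lower with H196 as partner (235, 234 and 232 FPKM in MRC5_coH69, log2 fold change -0.86 ± 0.043, edgeR, adjusted p = 3.62e-15). CAV1 was lower too (368, 365 and 359 FPKM in MRC5_coH69, -0.26 ± 0.041, adjusted p = 4.98e-06), as was CAVIN2 (16.4, 16.0 and 16.4 FPKM, -0.30 ± 0.056, adjusted p = 3.51e-05). CAV2 was higher by 0.42 ± 0.048 (adjusted p = 2.76e-08) and EHD2 by 0.34 ± 0.043 (adjusted p = 1.4e-07), with EHD2 at 190, 198 and 185 FPKM in MRC5_coH69. CAVIN1 was lower by -0.10 ± 0.042 (adjusted p = 0.0303), a call lost with DESeq2 size factors (adjusted p = 0.0538) and without replicate 2 of MRC5_Mo, replicate 1 or 2 of MRC5_coH69, or replicate 2 or 3 of MRC5_coH196 (adjusted p 0.0531 to 0.15). PACSIN2 (26.8, 27.9 and 27.3 FPKM in MRC5_coH69) did not pass, at 0.06 ± 0.045, and was called lower with limma on log2(FPKM + 1) (-0.09, adjusted p = 0.0394). Of all calls 49.3% were higher, and 34.4% by library totals alone. This comparison shares the MRC5_coH196 libraries with the one against MRC5_Mo.

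In H196_Co against H196_Mo, the comparison for the tumor cells, EHD2 and CAVIN1 rose, so 2 of the 5 tested members were called higher and 0 lower, beside 12% of the 12806 tested genes higher and 7.78% lower. None of the 5 passed the added limit of 0.58, which 3.86% of tested genes did. EHD2 had 7.84, 7.54 and 7.65 FPKM in H196_Mo and 10.7, 11.3 and 10.5 FPKM in H196_Co. The groups did not overlap (log2 fold change 0.57 ± 0.078, edgeR, adjusted p = 2.66e-05), and EHD2 was called in H196_Co with each library left out and under each scaling tried (0.45 to 0.59). CAVIN1 had 45.0, 48.9 and 45.8 FPKM in H196_Mo and 52.8, 50.9 and 51.5 FPKM in H196_Co. Its groups did not overlap either (0.23 ± 0.069, edgeR, adjusted p = 0.0237). The CAVIN1 call was lost by library totals alone (0.15, adjusted p = 0.0965), where the share of all calls that were higher was 33.1% in place of 60.8%, and when replicate 1 or 3 of either H196 group was left out (adjusted p up to 0.0948).

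The caveolins of H196 did not pass. CAV1 had 200, 189 and 209 FPKM in H196_Mo and 186, 201 and 184 FPKM in H196_Co, and the groups overlapped (0.01 ± 0.069, 95% interval -0.12 to 0.15). CAV2 had 59.5, 54.0 and 60.3 FPKM against 60.3, 62.6 and 54.7 FPKM, also with overlap (0.11 ± 0.072, interval -0.03 to 0.25). PACSIN2 had 28.6, 30.1 and 30.9 FPKM against 26.2, 26.2 and 28.1 FPKM, lower in every co-cultured library but with a log2 fold change of -0.08 ± 0.073 that did not pass (edgeR, adjusted p = 0.496). The 142 genes chosen by the same limits the other way round summed to 0.0451% to 0.0498% of their MRC5 level in H196_Co. In H196_Mo, where they are low by choice, they summed to 0.0354% to 0.0394%. Whether their RNA in H196_Co came from MRC5 or from H196 itself was not tested. CAVIN3, at 165 CPM in MRC5_Mo, was at 0 counts in all 3 H196_Co libraries, which allows at most 0.0356% of that level. In H196_Co 9 of the 10 fibroblast markers were in the table and summed to 2.90 to 3.80 CPM, with COL1A2 at 0 to 1 counts. Epithelial markers summed to 244 to 273 CPM in H196_Co against 212 to 221 in H196_Mo, and leukocyte markers to 108 to 117 against 80.8 to 86.6. The leukocyte sum was nearly all CD68 (108 to 116 CPM in H196_Co against 80.7 to 86.6 in H196_Mo), with CD14 at 1 to 2 counts. The epithelial sum was nearly all KRT8 (log2 fold change 0.43) and KRT18 (0.29), both called higher. The part of these marker shifts in the result was not tested.

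Whether the lines responded differently was tested in the fit of both, as the change in MRC5_coH196 minus the change in H196_Co. CAV2 rose more in MRC5 (0.45 ± 0.083, edgeR, adjusted p = 4.38e-05). The difference was -0.38 ± 0.074 for CAV1 (adjusted p = 0.000108) and -0.38 ± 0.077 for CAVIN1 (adjusted p = 0.000152), both lower in MRC5 and not so in H196. EHD2 rose in each line and more in H196 (-0.31 ± 0.082, adjusted p = 0.00229). These 4 of 5 tested members stand beside 51.2% of tested genes that differed in either direction. PACSIN2 did not pass (0.16 ± 0.077, edgeR, adjusted p = 0.0774), but did with a DESeq2 Wald test (0.21, adjusted p = 0.0233). CAVIN3 and CAVIN2 could not be tested for want of counts or of a listing in H196.

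Ratios of 2 genes within a library do not depend on how libraries are scaled. With 3 libraries against 3 an exact permutation test cannot go below p = 0.1, so these differences are given with their values, and the smallest adjusted p over the 11 tests was 0.157. The CAV2/CAV1 ratio of FPKM was 0.13, 0.138 and 0.141 in MRC5_Mo, 0.165, 0.155 and 0.167 in MRC5_coH69 and 0.24, 0.269 and 0.269 in MRC5_coH196. Each co-culture lay above the mono-culture without overlap, and the ratio in MRC5_coH196 was 1.90 times that in MRC5_Mo (log2 difference 0.92 ± 0.065, two-sided exact permutation p = 0.1). In H196_Mo the ratio was 0.298, 0.286 and 0.288, above every MRC5 library, and in H196_Co 0.324, 0.311 and 0.297, which overlapped with it.

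The EHD2/CAV1 ratio was higher after co-culture with the other line in both MRC5 and H196. It was 0.493, 0.517 and 0.538 in MRC5_Mo and 0.812, 0.746 and 0.833 in MRC5_coH196, 1.54 times higher (0.63 ± 0.060, two-sided exact permutation p = 0.1). In H196 it went from 0.0392, 0.04 and 0.0365 to 0.0573, 0.0562 and 0.0572, 1.48 times higher (0.56 ± 0.040, two-sided exact permutation p = 0.1). Neither pair of groups overlapped, while MRC5_coH69 (0.518, 0.544 and 0.515) overlapped with MRC5_Mo. Within the cavins, CAVIN3/CAVIN1 was 0.446, 0.441 and 0.417 in MRC5_Mo and 0.257, 0.287 and 0.284 in MRC5_coH196, or 0.635 times as high (-0.66 ± 0.058, two-sided exact permutation p = 0.1). In MRC5_coH69 it was 0.475, 0.454 and 0.478, above MRC5_Mo. CAVIN1/CAV1 was 1.20, 1.33 and 1.42 in MRC5_Mo and 1.58, 1.47 and 1.52 in MRC5_coH196 (0.21 ± 0.075), without overlap. It was 0.225, 0.259 and 0.219 in H196_Mo and 0.284, 0.253 and 0.28 in H196_Co, with overlap.

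**Figure D3:**
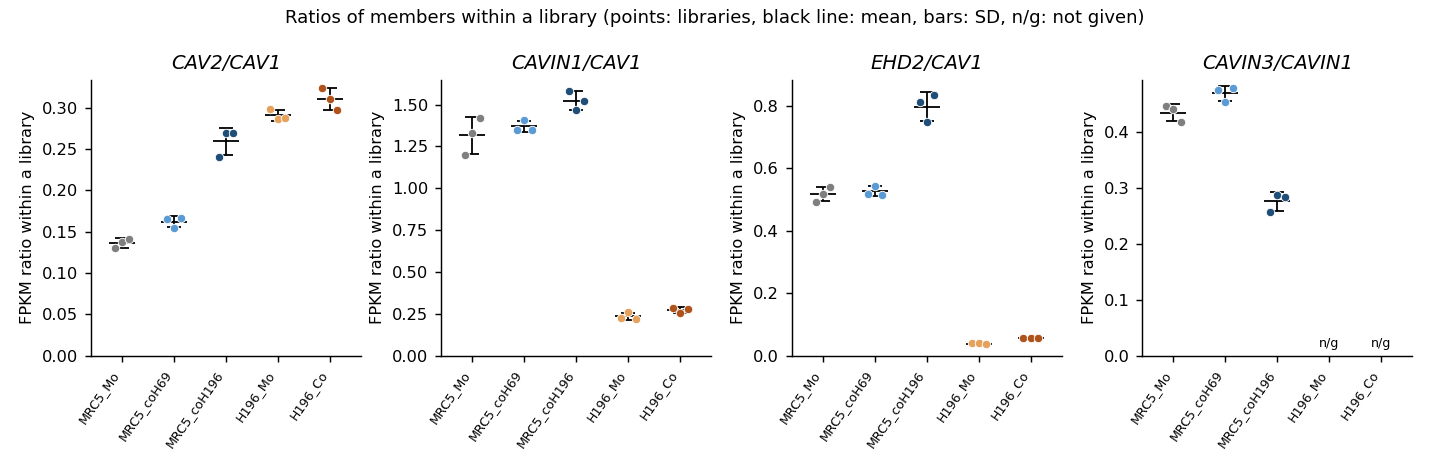
Ratio of FPKM (linear axes from 0) of 2 caveola genes in each library by group, with the mean (black line) and SD (bars, n = 3). In MRC5_coH196 CAV2/CAV1 and EHD2/CAV1 lie above and CAVIN3/CAVIN1 below the other MRC5 groups, and CAVIN1/CAV1 separates MRC5 (1.20 to 1.58) from H196 (0.219 to 0.284).

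Ordered by FPKM over the groups, the genes fell into different patterns. CAV1 was highest in MRC5_Mo, then MRC5_coH69, MRC5_coH196, H196_Mo and H196_Co, and only the H196 groups overlapped. Its scaled test between MRC5_Mo and MRC5_coH69 did not pass (edgeR, adjusted p = 0.282). CAVIN1 had the same order but for H196_Co above H196_Mo, with overlap of MRC5_Mo and MRC5_coH69. CAVIN3 was highest in MRC5_coH69, which did not overlap with MRC5_Mo although the scaled test did not pass there (edgeR, adjusted p = 0.293). EHD2 ran from MRC5_coH196 through MRC5_Mo and MRC5_coH69 to H196_Co and H196_Mo, with no neighbours that overlap. Between MRC5_Mo and MRC5_coH69 its scaled test did not pass either (edgeR, adjusted p = 0.567). CAV2 was highest in MRC5_coH196 and lowest in MRC5_Mo, and H196_Co, MRC5_coH69 and H196_Mo overlapped between them. For CAV2 the order between the lines depends on the scaling. The TMM fit called it higher in MRC5_Mo than in H196_Mo (0.31, edgeR, adjusted p = 2.2e-05). PACSIN2 was the flattest, with means from 25.5 to 29.8 FPKM over the 5 groups. Its FPKM were highest in H196_Mo, whereas the TMM fit called it higher in MRC5_Mo than there (0.27, edgeR, adjusted p = 3.71e-05).

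The genes with the most similar pattern were sought over the 5 group means of log2 CPM, each gene centred, by the root mean square difference among 9793 genes of at least 10 CPM on average. CAV1 was closest to LITAF (0.0305), TSR3 (0.0317) and SMARCD3 (0.0475). CAV2 was closest to ORAI3 (0.0104), VPS26C (0.0366) and CCDC68 (0.0387), and PACSIN2 to R3HCC1L (0.0173), KIFC3 (0.02) and CBX3 (0.0272). CAVIN1 was closest to SH3RF3 (0.0765), GALC (0.0982) and ITGA5 (0.101), and EHD2 to AOX1 (0.0645), PDLIM1 (0.101) and QSOX1 (0.129). For CAVIN3 the nearest were MASP1 (0.266), LMOD1 (0.28) and EMILIN1 (0.291), where the prior count of 2 sets the level of CAVIN3 in H196. Among the members themselves the nearest pair was CAV2 and PACSIN2 (0.179, rank 678 from CAV2), and CAV1 was 0.476 from CAV2. With 5 points that share libraries these are descriptions of likeness.

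A further list of 14 genes holds the remaining family members and the proteins known to act with caveolae. In MRC5_coH196 against MRC5_Mo 12 of them were tested, 6 were called higher and 4 lower, beside 37.2% of all tested genes higher and 37.1% lower, with a median log2 fold change of 0.15 (-0.003 over all tested genes). The share called was close to the background. ROR1, a receptor reported to scaffold the caveolar coat, fell from a mean of 1.57 FPKM in MRC5_Mo to 0.64 FPKM (-1.29 ± 0.136, edgeR, adjusted p = 5.11e-09). The EHD2 relatives EHD3 (-0.73 ± 0.056, adjusted p = 1.51e-11) and EHD1 (-0.56 ± 0.048, adjusted p = 1.56e-10), which serve in endosome recycling, fell, against the rise of EHD2. FLNA, the filamin that links caveolae to actin, fell by 0.10 on the log2 scale (adjusted p = 0.0369), and EHD4 (0.05) and CAVIN4 (0.11) did not pass. The PACSIN2 relative PACSIN3 rose (0.40 ± 0.060, adjusted p = 1.39e-06), as did the kinases ABL1 (0.43 ± 0.044, adjusted p = 3.86e-09) and SRC (0.25 ± 0.053, adjusted p = 0.000176). The dynamins, which pinch vesicles off, were called higher too, with 0.19 for DNM1, 0.19 for DNM2 and 0.88 for DNM3, the last on 13 to 25 counts and at 0.05 (adjusted p = 0.426) with limma on log2(FPKM + 1). By library totals alone 3 were called higher and 5 lower. EHD1, EHD3, ROR1 and FLNA were called lower and PACSIN3, ABL1 and DNM3 (0.70) higher there as well. EHD4 changed sign and was called lower there (-0.12, edgeR, adjusted p = 0.0216), whereas SRC (0.07), DNM1 (0.02) and DNM2 (0.01) did not pass.

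CAV3, the muscle caveolin, had 0 to 2 counts in every MRC5 library, and PACSIN1, the neuronal form, 0 to 4, so neither was tested in MRC5. In MRC5_coH69 0 of the 12 passed in either direction by the quasi-likelihood test, with EHD1 nearest (-0.15 ± 0.047, edgeR, adjusted p = 0.0552, unadjusted p = 0.004), and EHD1 was called lower with DESeq2 size factors (-0.16, adjusted p = 0.0485), by library totals alone (-0.17, adjusted p = 0.0237) and by a DESeq2 Wald test (-0.16, adjusted p = 0.0432). EHD1 was the only one of the 12 at an unadjusted p under 0.05. In H196_Co 13 were tested, 3 called higher and 2 lower, beside 12% of all tested genes higher and 7.78% lower. PACSIN1 rose from 1.02 to 1.39 FPKM in H196_Mo to 1.55 to 2.17 FPKM (0.73 ± 0.148, edgeR, adjusted p = 0.00168). FLNA rose (0.34 ± 0.082, adjusted p = 0.00579), opposite to its direction in MRC5_coH196, and the difference between the lines passed (-0.47 ± 0.094, adjusted p = 0.000134). DNM1 rose (0.34 ± 0.111, adjusted p = 0.0371), and ROR1 (-0.37 ± 0.103, adjusted p = 0.0149) and DNM3 (-0.44 ± 0.144, adjusted p = 0.0348) fell. DNM1 did not pass by library totals alone (0.26, adjusted p = 0.091), and neither DNM1 nor DNM3 passed a DESeq2 Wald test (adjusted p = 0.0954 and 0.106) or limma on log2(FPKM + 1) (adjusted p = 0.117 and 0.407).

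**Figure D4:**
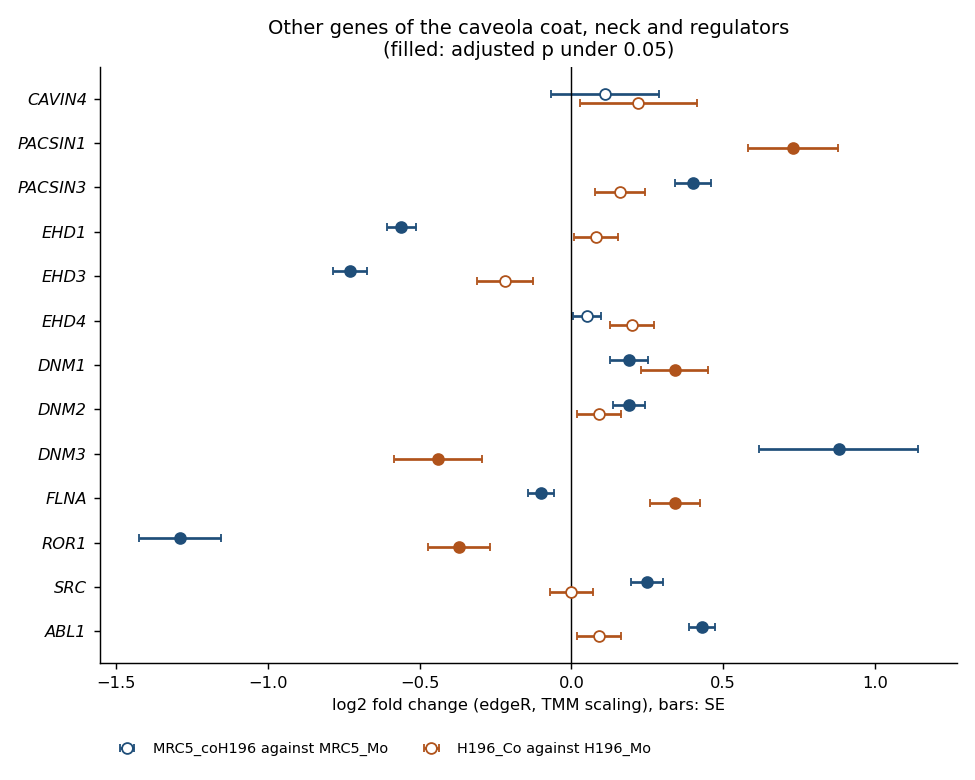
Log2 fold change (linear axis) with its SE of the other caveola genes in MRC5_coH196 against MRC5_Mo and in H196_Co against H196_Mo, with 3 libraries per group. Filled points passed an adjusted p under 0.05 (edgeR). ROR1 is lowest in MRC5_coH196 (-1.29), and FLNA and DNM3 lie on opposite sides of 0 in the 2 lines.

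For comparison, a list of 14 genes of clathrin pits and of the flotillin scaffolds, other routes of uptake at the membrane, was followed in the same fits. In MRC5_coH196 6 were called higher and 4 lower, beside 37.2% and 37.1% of all tested genes, with a median of 0.01, and by library totals alone 4 higher and 8 lower. With TMM the largest changes were those of EPN2 (0.66 ± 0.044, edgeR, adjusted p = 1.09e-12) and PICALM (0.50 ± 0.046, adjusted p = 4.12e-10), adaptors of clathrin pits. By library totals alone CLTB, a clathrin light chain, came first (-0.61, against 0.49 for EPN2 and 0.33 for PICALM). In MRC5_coH69 1 was called higher, STOM, a stomatin of membrane rafts (0.26 ± 0.046, edgeR, adjusted p = 0.000605), and FLOT1 came next in size (-0.15 ± 0.047, adjusted p = 0.0635). FLOT1 was called lower by library totals alone (-0.16, adjusted p = 0.0285) and by a DESeq2 Wald test (-0.15, adjusted p = 0.0487). In H196_Co 0 of 14 passed in the quasi-likelihood test, where EPN1 (0.19 ± 0.071, adjusted p = 0.0713) and STOM (-0.19 ± 0.071, adjusted p = 0.0603) had the largest log2 fold changes. At an unadjusted p under 0.05 there were 2 higher and 1 lower, and STOM was called lower by a DESeq2 Wald test (-0.20, adjusted p = 0.0409), with limma on log2(FPKM + 1) (-0.26, adjusted p = 0.018) and by library totals alone (-0.27, adjusted p = 0.0123), the last with CLTC as well (-0.21, adjusted p = 0.0401).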

How the data were processed

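The authors cleaned BGISEQ reads with SOAPnuke and, per the labels, used HISAT, HISAT2 2.1.0, Bowtie2 2.3.4.3 and RSEM 1.3.1 with GRCh38.p13. Whether counting used strand was not given in the sources used here. Expected counts were taken as the authors deposited them and were assumed to be RSEM estimates with no scaling. Of these values 93.7% (MRC5) and 92.1% (H196) are whole. The deposited FPKM values are scaled by the authors to transcript length and library total. A second copy of each table, 30 columns of TPM and normalized counts, and the authors' own DESeq2 fold changes, p-values and q-values were not used.

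Expected counts were rounded and fitted in R 4.3.3 with edgeR 4.0.16 (TMM factors 0.916 to 1.05 for MRC5, 0.959 to 1.04 for H196 and 0.814 to 1.26 for both, filterByExpr, quasi-likelihood F test). The 9 MRC5 libraries shared 1 fit, the 6 H196 libraries another, and all 15 were fitted together on the genes listed in both tables. p-values were adjusted by Benjamini-Hochberg over all tested genes, and a call has an adjusted p under 0.05. The added limit of 0.58 is the study's for differentially expressed genes. SE is the log2 fold change divided by the root of F. CPM of markers use library totals. In simulated data for MRC5_coH196 against MRC5_Mo (12712 genes) edgeR recovered 79 of 100 genes changed by 0.5 and 99 of 100 changed by 1 on the log2 scale, with 15 false calls. DESeq2 1.42.0 and limma 3.58.1 served as alternatives.

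The genes, lists and alternatives were chosen with earlier results of these data known, and the other scalings of the listed genes were added after seeing the data. Named genes are the 7 members, the detected genes of the list of related proteins, the 2 largest changes of the clathrin list in each comparison with a mono-culture, and the 3 genes nearest to each member in pattern. Of the 12 planned ratio tests, CAVIN3/CAVIN1 in H196 was not made, since CAVIN3 is at or near 0 there. The interval of the CAVIN3 ratio and the limits from counts of 0 cover counting error only, and the intervals of log2 fold changes come from the edgeR SE. Promoter windows are RefSeq's on GRCh38.p14, of which the 250 bases before the start were used. CAVIN2 could not be matched in pattern, as it has no H196 values here.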

Additional observations from a re-analysis of the deposited data

Results flagged for a closer look

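For 4 genes the change of MRC5 grown with H196 differed from the change of H196 grown with MRC5, by the interaction term of the edgeR fit of both lines. The change in MRC5_coH196 minus the change in H196_Co was -0.38 for CAV1 on the log2 scale, where the MRC5 libraries fell and the H196 libraries did not pass. It was 0.45 for CAV2, which rose in MRC5. It was -0.38 for CAVIN1, which fell in MRC5 and was called higher in H196. It was -0.31 for EHD2, which rose in both lines and more in H196. The groups have 3 libraries each, so single libraries were not tested as outliers. Each line has its own table, and this term sets changes within a line against each other, so a constant difference between the tables drops out. A difference between the tables that affects only the co-cultures or only the mono-cultures cannot be told apart from it.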

How the results depend on the processing

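Leaving out 1 library at a time gave 5 to 7 called members and 9089 to 9610 called genes in MRC5_coH196 against MRC5_Mo, 0 to 1 and 384 to 1015 in MRC5_coH69, 5 to 6 and 8759 to 9346 between the co-cultures, 1 to 2 and 1559 to 2723 in H196_Co, and 4 to 5 and 6461 to 6996 for the difference between the lines. The log2 difference of CAVIN1/CAV1 in MRC5_coH69 was then -0.00 to 0.11 and that of EHD2/CAV1 -0.01 to 0.06, CAVIN1 in MRC5_coH69 -0.05 to 0.00 and CAV1 in H196_Co -0.02 to 0.06. With the limit of 0.58 on the log2 fold change, 2 members and 4092 genes passed in MRC5_coH196, 0 and 71 in MRC5_coH69, 1 and 3618 between the co-cultures, 0 and 494 in H196_Co, 3 members between the mono-cultures, and 0 and 3357 for the difference between the lines. By library totals alone 0 members passed in MRC5_coH69 and 1 in H196_Co, and likewise with limma on log2(FPKM + 1) and log2(FPKM + 0.1), where 404 and 386 genes passed in MRC5_coH69. Those 3 settings turned PACSIN2 in MRC5_coH196 to -0.06, -0.06 and -0.06 (against MRC5_coH69 -0.10, -0.09 and -0.10, called lower with limma), CAV1 in H196_Co to -0.06, -0.06 and -0.07, and between the mono-cultures CAV2 to -0.12, -0.13 and -0.13 and PACSIN2 to -0.15, -0.16 and -0.17. The medians of all genes shift with these scalings. The main fits do not pair libraries by replicate number. Deviations of same-numbered libraries from their group means correlated at -0.12 to 0.08 for MRC5 and -0.15 to 0.03 for H196. Libraries of different numbers gave -0.11 to 0.17 and -0.14 to 0.2. With so few libraries this cannot exclude a shared culture or batch. With the replicate block, 7 members passed in MRC5_coH196 and 1 in H196_Co, where CAVIN1 had 0.23 at an adjusted p of 0.0529, and no other call of a member changed. Over all results and alternatives, 920 values kept direction and call or size, 46 lost a call, 8 gained one, 22 changed sign and 35 moved. In the simulated data changes of 0.5 on the log2 scale were found incompletely (79 of 100 by edgeR for MRC5_coH196 against MRC5_Mo). Smaller changes were not simulated, and far fewer genes were changed there than were called in MRC5_coH196. A gene that did not pass may still have changed.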
